A study of Arabidopsis thaliana with 36 samples.

Results

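Cytochrome P450 enzymes were measured by 23 probe sets, chosen as every probe set whose only gene symbol in the platform's annotation is CYP followed by a family number, a subfamily letter and a gene number. They were 23 of 22746 probe sets tested on the array, 1 per gene. Of these genes, 19 belonged to subfamily CYP71B, and the other 4 were CYP51G2, CYP78A9, CYP79A2 and CYP84A4. The RefSeq gene table held 253 genes named as P450s, so the members are a small and uneven sample of the superfamily. CYP82C4, which oxidises coumarins for iron mobilisation in Arabidopsis roots, and CYP71B15 (PAD3), which completes camalexin synthesis, are not analysed here.

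Cytochrome P450s are membrane-bound monooxygenases that hold a heme iron through a cysteine and use it to insert an oxygen atom into small molecules. Their heme comes from the tetrapyrrole pathway, which also supplies chlorophyll, and their electrons come from NADPH through a reductase. In plants they build hormones, sterols, lignin, glucosinolates and defence compounds, and the CYP71 family holds many enzymes of specialised metabolism whose substrates are unknown.

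RNA came from roots and shoots of Kas-1 and of Tsu-1, called Kas and Tsu here, which are natural accessions of Arabidopsis thaliana grown hydroponically on rockwool. Plants aged 24 d were moved to medium without iron for 24 h or 48 h, or for 24 h to complete medium, which held Fe(III)-EDDHA at 50 µM. The design gave 12 groups of 3 arrays each, 36 arrays in all, by ecotype, tissue, medium and time. Complete-medium plants at 48 h are not analysed here, and in each 48 h comparison the absence of iron and the later sampling cannot be told apart. Values are log2 expression per probe set, and a difference of 1 is a doubling. A gene is called where limma's p, adjusted by Benjamini-Hochberg over the 22746 probe sets, is below 0.05. Nothing in the labels ties the 3 arrays of a group to separate plants, and their spread, on which each p-value rests, may be technical.

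Tissue markers followed the titles of the arrays, although the extraction protocol speaks of rosettes for every sample. The 3 root markers averaged at least 7.60 on each root array and at most 4.68 on each shoot array, and the 2 photosystem genes measured averaged at most 4.94 on each root array and at least 11.4 on each shoot array. The ecotype label was checked with an index set to 1 at Kas and 0 at Tsu after 48 h without iron, over 302 probe sets in roots and 385 in shoots that separate the ecotypes there, members left out. On 12 arrays of 5 groups the index lay over 0.25 from the label. Its mean was 0.832 ± 0.261 (SD, n = 3) in Kas roots after 24 h without iron and 0.606 ± 0.146 in Kas roots on complete medium. It was 0.499 ± 0.0951 in Tsu roots after 24 h without iron and 0.419 ± 0.0856 in Tsu roots on complete medium. Tsu shoots after 24 h without iron had 0.484 ± 0.0463, against -0.00267 ± 0.00847 in Tsu shoots on complete medium. Kas shoots lay at 0.926 after 24 h without iron and 0.908 on complete medium. Of all arrays, 5 correlated best with an array of another group.

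Few of the 23 probe sets were bright. CYP71B6 alone read above the array's median on all 36 arrays, and 11 members read above it on none. CYP71B16, CYP71B21, CYP71B30P, CYP71B31 and CYP79A2 read below the array's lower quartile, which was 2.72 to 3.05, on all 36 arrays. CYP71B27 did so on 35 arrays, CYP71B25 on 31, CYP71B38 on 28 and CYP71B36 on 22. Brightness differs between probe sets for the same amount of RNA, so only differences of 1 probe set between groups are compared.

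By gene order in RefSeq, 17 members fell into 3 clusters on chromosomes 1 and 3, with at most 10 other genes between neighbours. The chromosome 1 cluster held CYP71B27, CYP71B28 and CYP71B29. The largest, on chromosome 3, held 11 members: CYP71B16, CYP71B21 to CYP71B26 and CYP71B34 to CYP71B37, with 0 genes between each neighbouring pair from CYP71B34 to CYP71B37. A further cluster on chromosome 3 held CYP71B5, CYP71B30P and CYP71B31. RefSeq lists CYP71B27 and CYP51G2 as transcribed pseudogenes. Whether transcripts of similar neighbours bind the same probes was not tested.

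**Figure D1:**
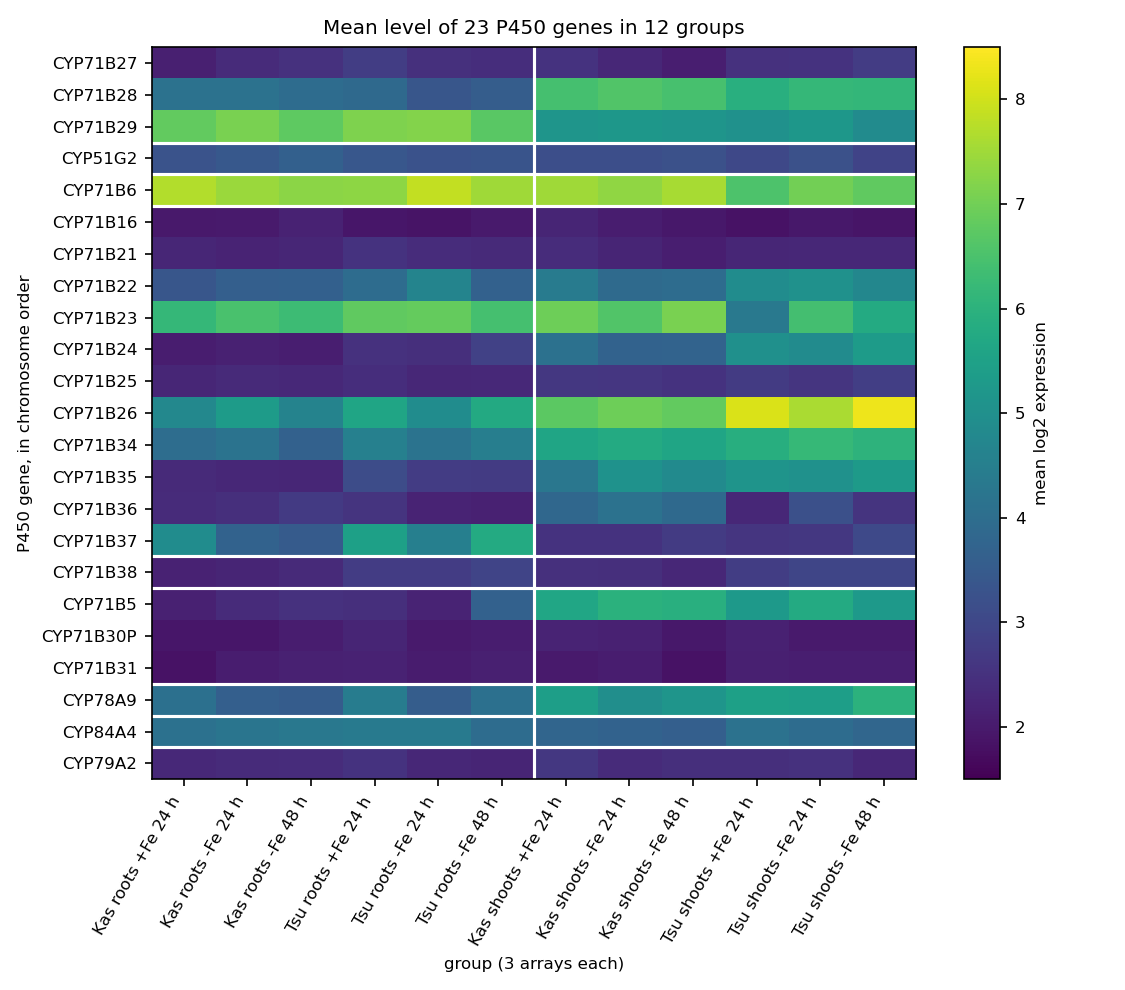
Mean log2 expression of the 23 P450 genes, in chromosome order from top to bottom, in the 12 groups of 3 arrays. White horizontal lines part the clusters, and the white vertical line parts roots on the left from shoots on the right. CYP71B29 and CYP71B37 are brighter in roots, CYP71B5, CYP71B26 and CYP71B28 in shoots, and CYP71B23 stands low in Tsu shoots on complete medium.

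The main question of the study was what each ecotype changes without iron. Over 8 comparisons, 10 of 184 member results passed (5.43%), against 5.46% of all probe set results, so the members were called about as often as the array. All 10 were rises, they belonged to 7 of the 23 genes, and 16 genes passed in none. Other settings also called falls. With all 36 arrays in 1 fit there were 1 and 2 in Kas roots at 24 h and 48 h and 2 in Tsu roots at 24 h. In Tsu shoots at 24 h, 1 fall was called with only the arrays compared and 1 with a filter on dim probe sets. Groups without overlap, counted in either direction, are given beside their share over all probe sets. The 24 h and 48 h comparisons of an ecotype and tissue share their complete-medium arrays.

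**Figure D2:**
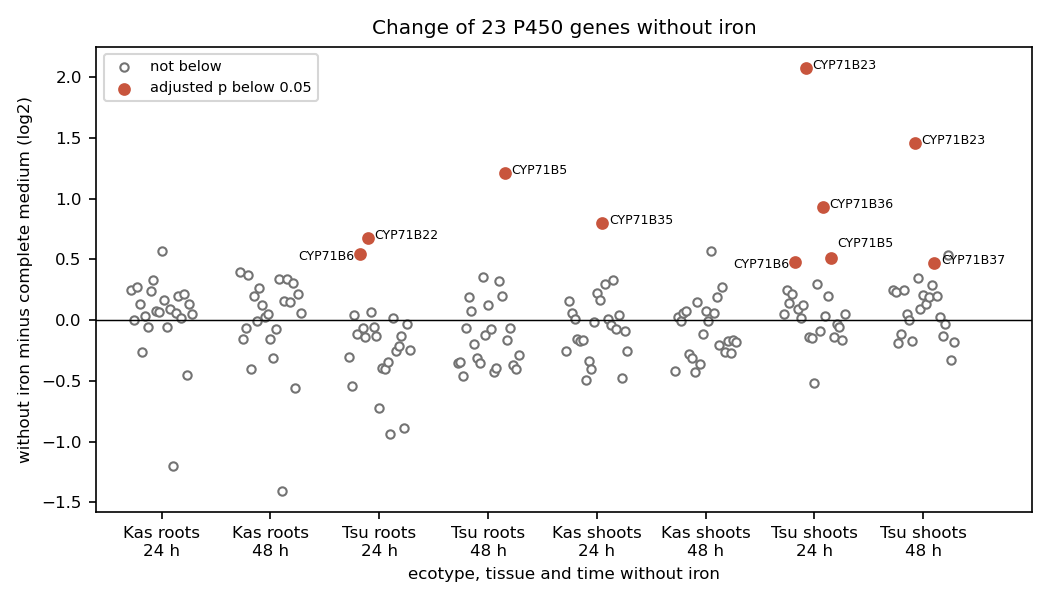
Change of each of the 23 P450 genes without iron, as log2 expression without iron minus log2 expression on complete medium (vertical axis), in 8 comparisons of ecotype, tissue and time (horizontal axis). Each point is 1 gene, and filled red points have an adjusted p below 0.05. All 10 filled points lie above 0, with CYP71B23 in Tsu shoots the highest at both times, 2.08 and 1.46.

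CYP71B23, a gene of the chromosome 3 cluster with no role assigned here, showed the largest rise. In Tsu shoots it read 6.12, 6.64 and 6.45 after 24 h without iron and 6.13, 5.64 and 5.59 after 48 h without iron, against 4.39, 3.89 and 4.71 on complete medium. All 6 arrays without iron lay above all 3 with iron. The rise was 2.08 on the log2 scale at 24 h (SE 0.20, adjusted p = 3.29e-07 in limma) and 1.46 at 48 h (SE 0.20, adjusted p = 0.000301 in limma), which is 4.21-fold and 2.75-fold. Both calls held without each array in turn.

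The same gene did not pass in Kas shoots, where it read 6.69, 6.78 and 6.36 after 24 h without iron, 7.30, 7.14 and 6.86 after 48 h without iron and 6.70, 7.21 and 6.94 on complete medium. Both groups without iron overlapped complete medium, while all 24 h arrays lay below all 48 h arrays, and the differences were -0.34 (adjusted p = 0.488 in limma) and 0.15 (adjusted p = 0.787 in limma). At 48 h the rise in Kas shoots minus the rise in Tsu shoots was -1.31 (SE 0.28, adjusted p = 0.0136 in limma), and this interaction passed without each of the 12 arrays in turn. It was the 1 member called for the ecotype by iron interaction in shoots, against 3.94% of all probe sets and 2% lower. In Tsu roots the gene read 6.88, 6.82 and 6.84 after 24 h without iron, 6.33, 6.46 and 6.51 after 48 h without iron and 6.67, 6.93 and 6.75 on complete medium, and neither iron difference passed. The iron effect in Tsu roots minus that in Tsu shoots at 48 h was -1.81 (SE 0.31, adjusted p = 0.0013 in limma), and it too held without each of 12 arrays. The index in Tsu roots was 0 at 48 h, where it is fixed, and 0.419 on complete medium.

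In Tsu shoots 4 of 23 members (17.4%) rose after 24 h without iron and 0 fell, while 16.1% of all probe sets passed in either direction and 8.29% rose. The share of members called was therefore near that of the array. Besides CYP71B23 they were CYP71B6, CYP71B36 and CYP71B5. CYP71B6, which turns indole acetonitrile into indole carboxylic acid in defence, read 7.02, 6.90 and 7.12 without iron against 6.47, 6.64 and 6.50 on complete medium, a rise of 0.48 (SE 0.10, adjusted p = 0.00214 in limma) with no overlap. The dim CYP71B36, below the lower quartile on 22 of 36 arrays, read 2.95, 3.07 and 3.58 without iron. On complete medium it read 2.29, 2.34 and 2.18, and the rise was 0.93 (SE 0.26, adjusted p = 0.0197 in limma). CYP71B5 read 5.73, 5.97 and 5.61 without iron against 5.06, 5.36 and 5.36 on complete medium, a rise of 0.51 (SE 0.15, adjusted p = 0.0242 in limma).

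The groups of arrays did not overlap for any of the 4 genes, nor for 3 other members, 7 of 23 against 32.2% of all probe sets. These 3 without-iron arrays are those whose ecotype index was 0.484. All 4 genes also read higher in Kas than in Tsu shoots on complete medium, by 2.62 for CYP71B23, 1.56 for CYP71B36, 0.96 for CYP71B6 and 0.37 for CYP71B5. With the index as a covariate all 4 calls ended, and the estimates became 0.64, -0.56, 0.43 and 1.13 in that order (adjusted p from 0.813 to 0.968 in limma). The index hardly varied within these groups, so at 24 h in Tsu shoots the iron effect and the shift in the index cannot be told apart. The 48 h group fixes the index at 0 and complete medium had -0.00267, so there the covariate cannot test the rise of CYP71B23. The CYP71B36 call ended without complete-medium replicate 3 (adjusted p = 0.0607) or without-iron replicate 3 (0.11). The CYP71B5 call ended without complete-medium replicate 1 (0.12) or without-iron replicate 2 (0.124), or with all 36 arrays in the fit (0.143), all in limma.

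Tsu shoots had 2 of 23 members higher (8.70%) after 48 h without iron, against 4.34% of all probe sets in either direction and 2.45% higher. Groups did not overlap for 5 of 23, against 18% of all probe sets. The second was CYP71B37, the last gene of the row from CYP71B34. It read 2.79, 3.13 and 3.26 without iron and 2.52, 2.62 and 2.63 on complete medium, without overlap, and the rise was 0.47 (SE 0.13, adjusted p = 0.0428 in limma). That call ended without any 1 of 5 arrays, which are all but without-iron replicate 1, with adjusted p from 0.0834 to 0.142 in limma. It also ended with only the 6 arrays compared in the fit (0.196), with all 36 (0.601) and without the arrays between the ecotypes (0.0606). CYP71B6, CYP71B36 and CYP71B5 read 6.69, 6.80 and 6.84, then 2.41, 2.78 and 2.48, then 5.18, 5.17 and 5.51 at this time, and their differences of 0.25, 0.29 and 0.03 did not pass.

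In Kas shoots 1 of 23 members (4.35%) passed after 24 h without iron, against 1.86% of all probe sets and 1.06% higher. Groups did not overlap for 7 of 23, against 21% of all probe sets. CYP71B35 read 5.10, 4.90 and 5.24 without iron and 4.11, 4.61 and 4.12 on complete medium, all higher without iron, and rose by 0.80 (SE 0.19, adjusted p = 0.0368 in limma). The call ended without any 1 of 5 arrays, all but complete-medium replicate 2, with adjusted p from 0.0682 to 0.153 in limma. At 48 h 0 of 23 members passed in limma, against 4.11% of all probe sets. An unadjusted p below 0.05 was found for 5 members, a threshold not counted over all probe sets. Groups did not overlap for 7 of 23, against 23.1% of all probe sets. CYP71B35 then read 4.70, 4.79 and 5.05, still above each of the complete-medium arrays, with a difference of 0.57 (adjusted p = 0.108 in limma). In Tsu shoots its differences were -0.09 at 24 h and 0.19 at 48 h, and neither passed.

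Roots gave 3 rises, all in Tsu. After 24 h without iron 2 of 23 members (8.70%) passed, against 6.98% of all probe sets and 4.92% higher. Groups did not overlap for 7 of 23, against 27.8% of all probe sets. CYP71B6 read 7.94, 8.01 and 7.66 without iron and 7.33, 7.17 and 7.46 on complete medium, a rise of 0.55 (SE 0.13, adjusted p = 0.0189 in limma). CYP71B22 read 4.63, 4.64 and 4.71 without iron and 3.49, 4.36 and 4.11 on complete medium, a rise of 0.67 (SE 0.19, adjusted p = 0.0377 in limma). Neither gene's groups overlapped, and the index of these groups was 0.499 and 0.419. With the index as a covariate both rises passed, at 0.54 for CYP71B6 (adjusted p = 0.0284) and 0.71 for CYP71B22 (adjusted p = 0.0338), both in limma. With only the 6 arrays compared in the fit both calls ended (adjusted p = 0.0949 and 0.136 in limma), and quantile normalization ended that of CYP71B22 (0.0766). The CYP71B6 call ended without complete-medium replicate 2 (adjusted p = 0.0806) or without-iron replicate 1 (0.0767) or 2 (0.116). The CYP71B22 call ended without complete-medium replicate 1 (0.111) or without-iron replicate 1 (0.0921), 2 (0.123) or 3 (0.1), all in limma.

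In Tsu roots 1 of 23 members (4.35%) passed after 48 h without iron, against 1.62% of all probe sets and 0.985% higher. Groups did not overlap for 6 of 23, against 17.2% of all probe sets. CYP71B5 read 3.96, 2.94 and 4.08 without iron and 2.37, 2.82 and 2.16 on complete medium, with every array higher, and rose by 1.21 (SE 0.26, adjusted p = 0.027 in limma). At 24 h it had read 2.07, 2.28 and 2.24, overlapping complete medium. The call ended without complete-medium replicate 1 (adjusted p = 0.0551) or 3 (0.0666) or without-iron replicate 1 (0.186) or 3 (0.0818), all in limma. The index was 0 without iron and 0.419 on complete medium in Tsu roots, and with it as a covariate the difference was 0.74 (adjusted p = 0.463 in limma). With only the 6 arrays compared in the fit the call ended too (adjusted p = 0.252 in limma). The iron effect on CYP71B5 in Tsu roots minus that in Tsu shoots at 48 h was 1.19 (SE 0.31, adjusted p = 0.0344 in limma). It held without Tsu roots replicate 2 of either medium, Tsu shoots replicate 1 on complete medium or Tsu shoots replicate 3 without iron. It ended without any 1 of the other 8 arrays, with adjusted p from 0.0523 to 0.12 in limma, and with only these 12 arrays in the fit (0.229). CYP71B5 and CYP71B23 were the 2 members called for tissue by iron in Tsu (8.70%), 1 higher and 1 lower, against 2.41% of all probe sets, 1.05% higher and 1.36% lower.

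Kas roots had 0 of 23 members past the threshold in limma at either time. Over all probe sets 1.94% were called at 24 h and 6.73% at 48 h. An unadjusted p below 0.05 was found for 1 member at 24 h and for 5 at 48 h. This looser threshold was not counted over all probe sets. Groups did not overlap for 2 of 23 members at 24 h, against 18.3% of all probe sets. At 48 h they did not overlap for 6 of 23, against 27.8% of all probe sets. The lowest adjusted p belonged to CYP71B37 both times. It read 4.61, 3.35 and 3.14 after 24 h without iron, 3.09, 3.43 and 3.98 after 48 h without iron and 3.81, 5.31 and 5.58 on complete medium, and the 3 groups overlapped. The differences were -1.20 (SE 0.43, adjusted p = 0.175) and -1.40 (SE 0.43, adjusted p = 0.0577), both in limma. Replicate 1 on complete medium, whose index was 0.774 against 0.526 and 0.517 for the other two, held the low value. In Tsu roots the differences of CYP71B37 were -0.94 and 0.32, and neither passed.

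The index in Kas roots was 1 at 48 h, where it is fixed, and 0.606 on complete medium, and in Kas shoots 1 and 0.908. For tissue by iron in Kas at 48 h, 2 of 23 members (8.70%) passed, 1 higher and 1 lower, against 8.29% of all probe sets, 4.04% higher and 4.26% lower. For CYP71B37 the iron effect in Kas roots minus that in Kas shoots was -1.59 on the log2 scale (SE 0.47, adjusted p = 0.0307 in limma). For CYP71B27, a transcribed pseudogene in RefSeq, it was 0.81 (SE 0.23, adjusted p = 0.0269 in limma). CYP71B27 read 2.34, 2.74 and 2.41 without iron against 1.97, 2.20 and 2.14 on complete medium in Kas roots, and 2.0, 2.10 and 2.21 without iron against 2.54, 2.61 and 2.40 on complete medium in Kas shoots. CYP71B27 was also the 1 member (4.35%) called for the ecotype by iron interaction in roots, against 7.94% of all probe sets and 3.33% higher, at 0.75 for Kas minus Tsu (SE 0.19, adjusted p = 0.0251 in limma). In Tsu roots it read 2.53, 2.39 and 2.34 without iron and 2.61, 3.0 and 2.71 on complete medium, the direction opposite to Kas roots, though neither iron difference passed on its own. The index in Tsu roots was 0 at 48 h, where it is fixed, and 0.419 on complete medium. The interaction ended without complete-medium Kas replicate 1 (adjusted p = 0.0557) or 3 (0.056) or without-iron Kas replicate 2 (0.0578), or with only the arrays compared in the fit (0.064), all in limma. The tissue by iron call of CYP71B37 held without Kas roots replicate 1 or Kas shoots replicate 3 on complete medium or Kas roots replicate 3 without iron, and ended without any 1 of the other 9 arrays (adjusted p from 0.0507 to 0.123 in limma) or with only the 12 arrays in the fit (0.0665). That of CYP71B27 ended without any 1 of 7 arrays, which were Kas roots replicates 1 and 3 and Kas shoots replicates 1 and 2 on complete medium, and Kas roots replicate 2 and Kas shoots replicates 1 and 2 without iron (adjusted p from 0.0509 to 0.0847 in limma). These readings lie low on the array, where CYP71B27 never exceeded 3.31.

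**Figure D3:**
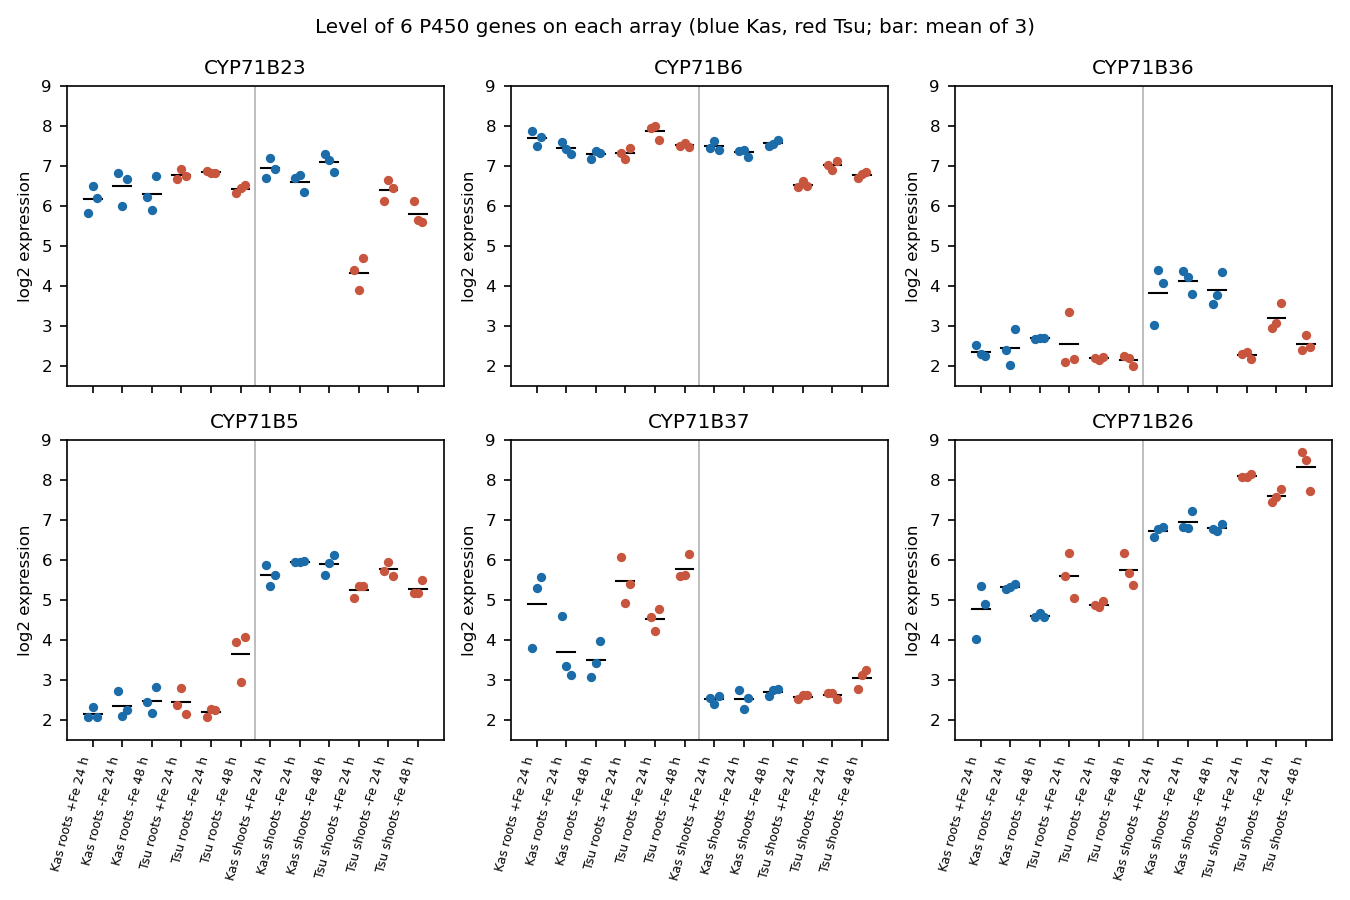
Log2 expression of 6 P450 genes on each of the 36 arrays (vertical axis), by group (horizontal axis), with roots left of the grey line and shoots right of it. Blue points are Kas, red points are Tsu, and bars are means of 3 arrays. CYP71B23 is lowest in Tsu shoots on complete medium, CYP71B5 in Tsu roots after 48 h without iron stands above the other root groups, and CYP71B37 is higher in every root group than in the shoots.

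Differences between roots and shoots were called more often than differences with iron, among the members as over the whole array. On complete medium 14 of 23 members (60.9%) differed between roots and shoots in Kas, against 55.5% of all probe sets, 2 higher and 12 lower in roots. In Tsu 14 of 23 (60.9%) differed too, against 56.8% of all probe sets, 6 higher and 8 lower in roots. Over the array 30.4% of probe sets were higher and 25.2% lower in Kas roots, and 31.7% higher and 25.1% lower in Tsu roots. Root and shoot arrays did not overlap for 17 of 23 members in Kas, against 62.7% of all probe sets, and for 13 of 23 in Tsu, against 57.1%. The members' median size of difference was 0.776 in Kas and 0.786 in Tsu on the log2 scale, against 0.421 and 0.445 over all probe sets. Kas and Tsu share no arrays, and 10 members were called in the same direction in both, 71.4% of each list. How often calls were shared over the whole array was not counted. The index of the Kas and Tsu root groups here was 0.606 and 0.419.

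**Figure D4:**
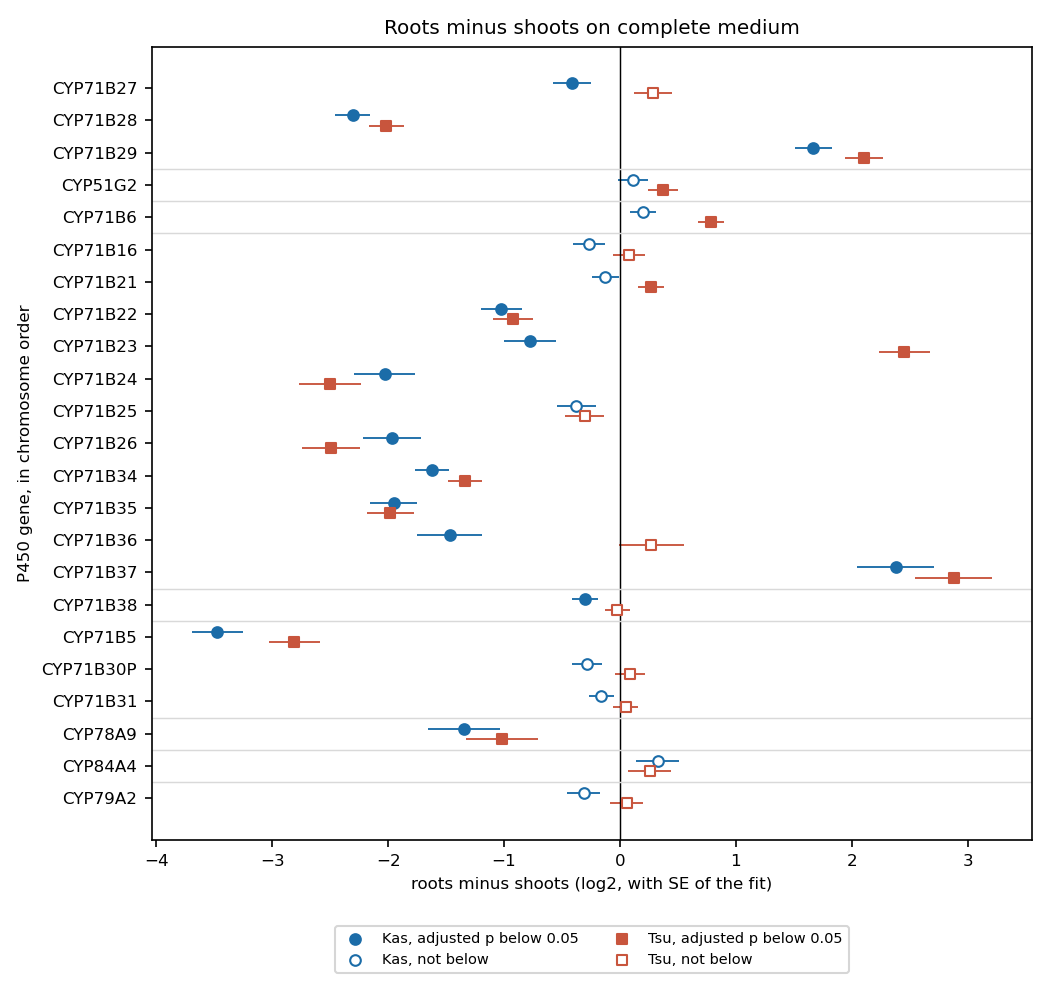
Roots minus shoots on complete medium for the 23 P450 genes, in log2 units (horizontal axis), with genes in chromosome order from top to bottom (vertical axis). Blue circles are Kas and red squares are Tsu, filled where the adjusted p is below 0.05, bars are the standard error of the fit, and grey lines part the clusters. CYP71B37 and CYP71B29 lie far to the right in both ecotypes, CYP71B5 farthest to the left, and CYP71B23 lies on opposite sides, at -0.78 in Kas and 2.45 in Tsu.

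Higher in roots of both ecotypes were CYP71B37 and CYP71B29. CYP71B37 read 3.81, 5.31 and 5.58 in Kas roots against 2.57, 2.41 and 2.60 in Kas shoots, and 6.07, 4.94 and 5.40 in Tsu roots against 2.52, 2.62 and 2.63 in Tsu shoots. Roots were higher by 2.38 in Kas (adjusted p = 2.05e-07) and by 2.88 in Tsu (4.47e-09), both in limma. CYP71B29 read 6.84, 6.77 and 6.88 in Kas roots against 5.17, 5.0 and 5.32 in Kas shoots, and 6.82, 7.43 and 7.23 in Tsu roots against 5.11, 4.81 and 5.24 in Tsu shoots, with roots higher by 1.67 and 2.11. No root array overlapped a shoot array for either gene.

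Some relatives in the same clusters ran the other way. CYP71B28, next to CYP71B29 on chromosome 1, read 4.03, 4.20 and 4.14 in Kas roots against 6.33, 6.50 and 6.46 in Kas shoots, and 4.28, 3.61 and 3.82 in Tsu roots against 5.93, 5.83 and 5.99 in Tsu shoots. The differences were -2.31 in Kas and -2.01 in Tsu, with no overlap. CYP71B34 and CYP71B35, in the unbroken row that ends with CYP71B37, were also lower in roots. CYP71B36, the gene next to CYP71B37, was lower in Kas roots (-1.47), and in Tsu its difference of 0.27 did not pass. CYP71B34 read 4.14, 3.99 and 3.86 in Kas roots against 5.55, 5.69 and 5.62 in Kas shoots, and 4.82, 4.20 and 4.64 in Tsu roots against 5.73, 5.85 and 6.09 in Tsu shoots. CYP71B35 read 2.08, 2.50 and 2.39 in Kas roots against 4.11, 4.61 and 4.12 in Kas shoots, and 2.87, 3.50 and 3.05 in Tsu roots against 4.71, 5.38 and 5.27 in Tsu shoots. The differences were -1.62 and -1.34 for CYP71B34 and -1.95 and -1.98 for CYP71B35, in Kas and Tsu, with adjusted p of at most 1.67e-09 in limma.

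CYP71B5 was lower in roots by the largest difference of any member in Kas, while in Tsu the difference of CYP71B37 was larger. It read 2.07, 2.32 and 2.07 in Kas roots against 5.89, 5.35 and 5.64 in Kas shoots, and 2.37, 2.82 and 2.16 in Tsu roots against 5.06, 5.36 and 5.36 in Tsu shoots. The differences were -3.48 in Kas (SE 0.22, adjusted p = 3.67e-15 in limma) and -2.81 in Tsu (SE 0.22, adjusted p = 6.99e-13 in limma). CYP71B5 read below the array's lower quartile on 14 arrays, all of roots, so no fold is given. Its neighbours CYP71B30P and CYP71B31 were dim in both tissues and did not pass.

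In the 11-gene cluster CYP71B26, CYP71B24 and CYP71B22 were lower in roots of both ecotypes. CYP71B26 read 4.04, 5.36 and 4.91 in Kas roots against 6.59, 6.78 and 6.83 in Kas shoots, and 5.60, 6.19 and 5.06 in Tsu roots against 8.09, 8.09 and 8.17 in Tsu shoots, with differences of -1.96 and -2.50. CYP71B24 read 1.91, 2.17 and 2.14 in Kas roots against 3.64, 4.74 and 3.93 in Kas shoots, and 2.47, 2.72 and 2.32 in Tsu roots against 4.70, 5.04 and 5.28 in Tsu shoots, with differences of -2.03 and -2.50. CYP71B22, for which Tsu roots read 3.49, 4.36 and 4.11 against 5.25, 4.57 and 4.90 in Tsu shoots, differed by -1.02 in Kas and -0.92 in Tsu. Within each ecotype no root array reached a shoot array for these 3 genes.

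CYP78A9, whose enzyme promotes the growth of fruits and seeds, was the 1 member outside CYP71B that was lower in roots of both ecotypes. It read 3.94, 4.76 and 3.54 in Kas roots against 5.26, 5.60 and 5.41 in Kas shoots, and 5.06, 4.77 and 3.51 in Tsu roots against 5.56, 5.75 and 5.10 in Tsu shoots. The differences were -1.34 (adjusted p = 0.000413 in limma) and -1.02 (adjusted p = 0.00555 in limma). The Tsu call ended without Tsu roots replicate 3 (adjusted p = 0.116 in limma).

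Some tissue differences held in 1 ecotype. CYP71B23 was lower in roots of Kas, where it read 5.83, 6.49 and 6.20 against 6.70, 7.21 and 6.94 in shoots, and higher in roots of Tsu, by -0.78 (adjusted p = 0.00327) and 2.45 (adjusted p = 2.13e-11), both in limma. CYP71B36 was lower by -1.47 in Kas roots (adjusted p = 3.58e-05 in limma), at 2.54, 2.29 and 2.25 against 3.02, 4.39 and 4.07 in Kas shoots, while Tsu roots read 2.10, 3.35 and 2.17 and did not differ from Tsu shoots past the threshold (0.27). CYP71B6 was higher by 0.79 in Tsu roots (adjusted p = 3.46e-07 in limma), and its difference in Kas, where roots read 7.89, 7.49 and 7.72 and shoots 7.45, 7.62 and 7.41, was 0.20. Weaker calls were CYP71B27 (-0.42) and CYP71B38 (-0.30) in Kas and CYP51G2 (0.37) and CYP71B21 (0.27) in Tsu. Kas roots read 2.16, 2.23 and 2.14 and Kas shoots 2.41, 2.48 and 2.55 for CYP71B38, and Tsu roots read 3.49, 3.35 and 3.34 and Tsu shoots 3.26, 2.75 and 3.04 for CYP51G2. CYP71B21 read 2.28, 2.77 and 2.54 in Tsu roots and 2.29, 2.27 and 2.23 in Tsu shoots, which overlapped.

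Each of these 4 weaker calls ended without some array. CYP71B27 lost it without replicates 1 or 3 of Kas roots (adjusted p = 0.112 and 0.0532) or 1 or 2 of Kas shoots (0.0703 and 0.0971). CYP71B38 lost it without replicate 3 of Kas roots (0.0619) or of Kas shoots (0.0733). CYP51G2 lost it without replicate 1 of Tsu roots (0.057) or 2 of Tsu shoots (0.142). CYP71B21 lost it without any 1 of 5 arrays, all but Tsu roots replicate 1 (from 0.0698 to 0.303), all in limma. Quantile normalization ended those of CYP71B38 (adjusted p = 0.165), CYP71B27 (0.0896) and CYP51G2 (0.105), and a fit of only the 6 arrays those of CYP71B21 (0.206) and CYP51G2 (0.0914), in limma. The tissue calls of the other members held without each array in turn, save that of CYP78A9 above.

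The difference between the ecotypes' tissue contrasts was tested as Kas minus Tsu of roots minus shoots, a contrast added after the values were seen. It was called for 4 of 23 members (17.4%), all lower, against 12.6% of all probe sets and 6.19% lower. The values were -3.23 for CYP71B23 (SE 0.31, adjusted p = 5.44e-09 in limma), -1.74 for CYP71B36 (adjusted p = 0.00279 in limma) and -0.58 for CYP71B6 (adjusted p = 0.0127 in limma), which held without each of 12 arrays. With only these 12 arrays in the fit that of CYP71B6 ended (adjusted p = 0.0922 in limma). The index was 0.606 in Kas roots, 0.419 in Tsu roots, 0.908 in Kas shoots and -0.00267 in Tsu shoots. CYP71B27 followed at -0.70 (adjusted p = 0.0428 in limma), but ended without any 1 of 7 arrays: Kas roots replicates 1 and 3, Tsu roots replicate 2, Kas shoots replicates 1 and 2 and Tsu shoots replicates 2 and 3 (adjusted p from 0.0682 to 0.123 in limma), with only the 12 arrays in the fit (0.0581) and under quantile normalization (0.0856).

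More members were called between the ecotypes in shoots than in roots, as over the whole array. Between roots 24.7% of all probe sets were called after 48 h without iron and 9.86% on complete medium. In shoots 14 of 23 members (60.9%) differed between Kas and Tsu after 48 h without iron, 6 higher and 8 lower in Kas, against 36.7% of all probe sets, of which 13.4% were higher and 23.2% lower. On complete medium 9 of 23 members (39.1%) differed, 5 higher and 4 lower in Kas, against 33.2% of all probe sets, 13.2% higher and 20% lower. Kas and Tsu arrays did not overlap for 14 of 23 members after 48 h without iron, against 45.6% of all probe sets, and for 10 of 23 on complete medium, against 43.5%. These comparisons share no arrays, and 7 members were called in both with 1 direction each, 50.0% of the 48 h list and 77.8% of the complete-medium list. The same overlap over all probe sets was not counted. The 48 h groups fix the index at 1 and 0, and on complete medium it was 0.908 in Kas and -0.00267 in Tsu shoots.

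**Figure D5:**
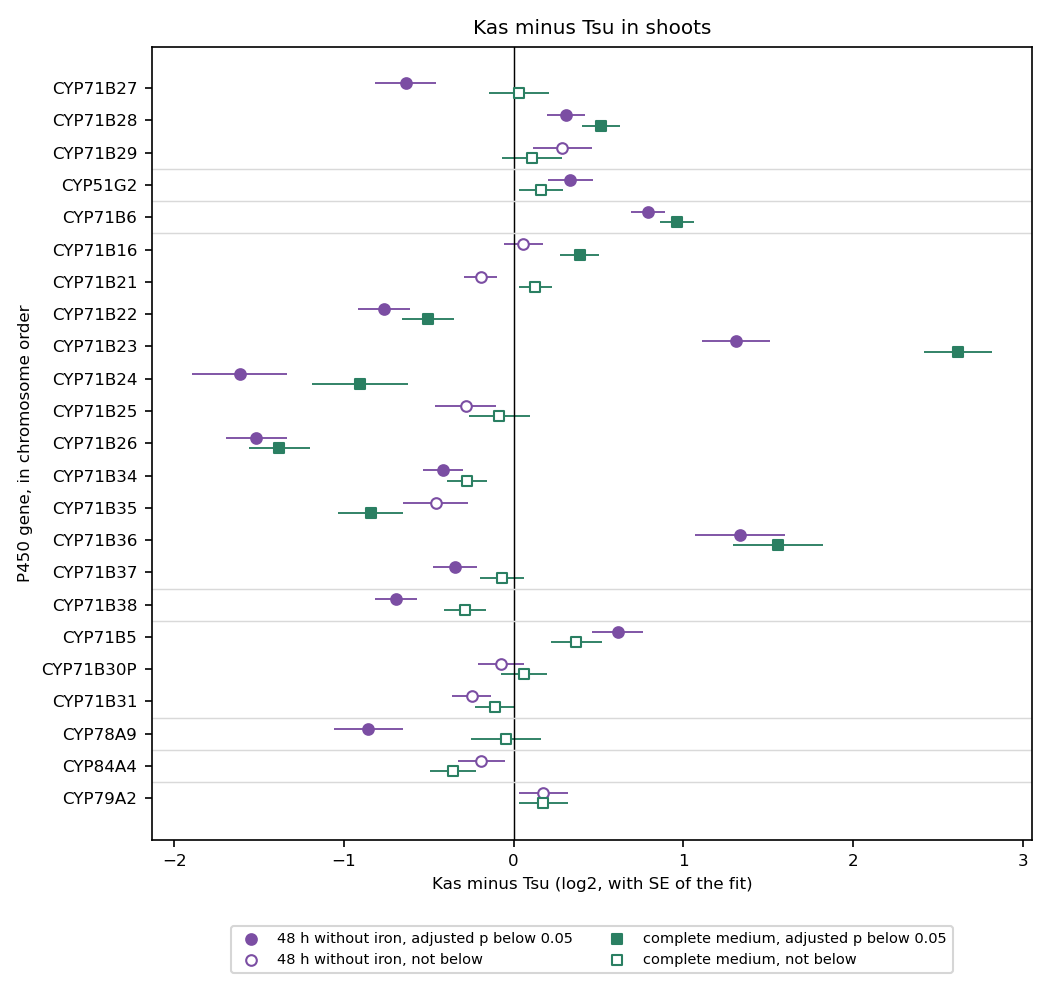
Kas minus Tsu in shoots for the 23 P450 genes, in log2 units (horizontal axis), with genes in chromosome order from top to bottom (vertical axis). Purple circles are after 48 h without iron and green squares are on complete medium, filled where the adjusted p is below 0.05, bars are the standard error of the fit, and grey lines part the clusters. CYP71B23 and CYP71B36 lie to the right and CYP71B24 and CYP71B26 to the left on both media, and CYP71B23 lies at 1.31 without iron and 2.62 with it.

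Higher in Kas shoots on both media were CYP71B23, CYP71B36, CYP71B6 and CYP71B28. CYP71B36 read 3.55, 3.77 and 4.35 in Kas and 2.41, 2.78 and 2.48 in Tsu after 48 h without iron, a difference of 1.33 (SE 0.26, adjusted p = 0.000477 in limma). On complete medium it read 3.02, 4.39 and 4.07 in Kas and 2.29, 2.34 and 2.18 in Tsu, a difference of 1.56 (SE 0.26, adjusted p = 0.000112 in limma). The Kas arrays lay above the Tsu arrays each time. CYP71B23 was higher in Kas by 1.31 (adjusted p = 3.09e-05 in limma) after 48 h without iron and by 2.62 (adjusted p = 3.2e-09 in limma) on complete medium, from the values given above.

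CYP71B6 read 7.51, 7.55 and 7.66 in Kas shoots against 6.69, 6.80 and 6.84 in Tsu shoots after 48 h without iron, and differed by 0.79 (adjusted p = 3.34e-06 in limma). On complete medium its difference was 0.96 (adjusted p = 2.89e-07 in limma). CYP71B28 read 6.36, 6.54 and 6.47 in Kas shoots against 6.16, 6.12 and 6.16 in Tsu shoots after 48 h without iron, and differed by 0.31 and, on complete medium, by 0.51. CYP71B5 passed after 48 h without iron, at 5.64, 5.94 and 6.12 in Kas against 5.18, 5.17 and 5.51 in Tsu, a difference of 0.61 (adjusted p = 0.00292 in limma), and had 0.37 on complete medium. CYP51G2 passed after 48 h without iron, at 3.13, 3.10 and 3.49 in Kas against 2.86, 2.82 and 3.03 in Tsu (0.34), and the dim CYP71B16 on complete medium, at 2.09, 2.51 and 2.10 in Kas against 1.85, 1.79 and 1.90 in Tsu (0.39).

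Lower in Kas shoots on both media were CYP71B26, CYP71B24 and CYP71B22. After 48 h without iron CYP71B26 read 6.78, 6.74 and 6.90 in Kas and 8.71, 8.52 and 7.74 in Tsu, a difference of -1.52 (SE 0.18, adjusted p = 1.21e-06 in limma), and on complete medium the difference was -1.38 (adjusted p = 4.38e-06 in limma). CYP71B24 read 4.39, 3.51 and 3.31 in Kas and 5.31, 5.02 and 5.74 in Tsu after 48 h without iron, a difference of -1.62 (SE 0.28, adjusted p = 0.000133 in limma), and differed by -0.90 on complete medium, where 1 Kas array, replicate 2, overlapped the Tsu arrays. CYP71B22 read 4.07, 3.91 and 3.94 in Kas and 4.70, 4.91 and 4.60 in Tsu after 48 h without iron, a difference of -0.76. On complete medium it read 4.30, 4.39 and 4.53 in Kas and 5.25, 4.57 and 4.90 in Tsu, a difference of -0.50. These 3 genes lie in the chromosome 3 cluster together with CYP71B23, which ran the other way.

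Besides CYP71B5 and CYP51G2, which were higher in Kas, 5 genes were called after 48 h without iron and not on complete medium. They were CYP78A9, CYP71B38, CYP71B27, CYP71B34 and CYP71B37, each lower in Kas shoots. CYP78A9 read 5.07, 4.80 and 5.58 in Kas and 6.27, 6.22 and 5.53 in Tsu, a difference of -0.86 (adjusted p = 0.00251 in limma), with 1 Kas array above the lowest Tsu array. CYP71B38 read 2.41, 2.27 and 2.13 in Kas and 3.15, 2.78 and 2.97 in Tsu, a difference of -0.69 (adjusted p = 0.000161 in limma). CYP71B27 read 2.0, 2.10 and 2.21 in Kas and 2.22, 3.31 and 2.69 in Tsu, a difference of -0.64, and the other two differed by -0.41 for CYP71B34 and -0.35 for CYP71B37. On complete medium these 5 genes had differences of -0.04, -0.29, 0.03, -0.27 and -0.07 in the same order. Called on complete medium alone was CYP71B35 (besides CYP71B16), with Kas minus Tsu at -0.46 after 48 h without iron and -0.84 on complete medium (adjusted p = 0.00197 in limma). That a gene passed on 1 medium and not on the other was tested by the ecotype by iron interaction, which was called for CYP71B23 alone.

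Some of the shoot calls rested on single arrays. After 48 h without iron those of CYP71B37 and CYP71B28 ended without any 1 of 5 arrays, with adjusted p from 0.0553 to 0.163 and from 0.0559 to 0.125, the exceptions being Tsu replicate 1 and Kas replicate 1. That of CYP51G2 ended without Kas replicates 1 or 3 (0.052 and 0.253) or Tsu replicates 1 or 2 (0.119 and 0.139), and that of CYP71B27 without Tsu replicate 2 (0.0649). On complete medium that of CYP71B24 ended without Kas replicates 1 or 3 (0.102 and 0.0664) or Tsu replicate 3 (0.0758). That of CYP71B22 ended without Kas replicate 1 (0.0586) or Tsu replicate 1 (0.116), and that of CYP71B16 without Kas replicate 2 (0.11), all in limma. With only the 6 arrays compared in the fit, CYP71B37, CYP71B27, CYP71B28 and CYP51G2 after 48 h without iron (adjusted p from 0.0575 to 0.0928) and CYP71B16 on complete medium (0.0507) ended. With all 36 arrays CYP71B37 (0.466) and CYP71B28 (0.127) ended, and quantile normalization ended CYP71B37 (0.135). Each other call between shoots held without each array in turn.

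In roots the members called between ecotypes were all lower in Kas. Of the 23, 6 (26.1%) were called after 48 h without iron, against 24.7% of all probe sets and 15.7% lower. On complete medium 5 of 23 (21.7%) were called, against 9.86% of all probe sets and 6.44% lower, but there the index was 0.606 in Kas and 0.419 in Tsu. CYP71B34 and CYP71B38 were called on both media, 33.3% of the 48 h list and 40.0% of the complete-medium list, an overlap not counted over all probe sets. Kas and Tsu root arrays did not overlap for 9 of 23 members after 48 h without iron, against 41.7% of all probe sets, and for 9 of 23 on complete medium, against 25.9%.

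CYP71B37 differed most. After 48 h without iron it read 3.09, 3.43 and 3.98 in Kas roots and 5.60, 5.62 and 6.15 in Tsu roots, a difference of -2.29 (SE 0.43, adjusted p = 0.00107 in limma), or 4.9-fold lower in Kas. On complete medium the difference was -0.57 (adjusted p = 0.392 in limma), with overlap. In roots the ecotype by iron interaction was called for CYP71B27 alone in the main fit, and for CYP71B37 it did not pass. Its values over the members ran from -1.72 to 0.75. With a filter on dim probe sets, 1 of the 4 members kept was called for it, lower. With all 36 arrays in 1 fit, 1 member was called higher and 2 lower. CYP71B5 read 2.46, 2.17 and 2.84 in Kas roots against 3.96, 2.94 and 4.08 in Tsu roots after 48 h without iron, a difference of -1.17 (adjusted p = 0.00345 in limma). In shoots CYP71B5 was higher in Kas at that time, so of the 6 root calls 5 had a shoot call in the same direction and CYP71B5 one in the opposite direction. This overlap of tissues was not counted over all probe sets.

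CYP71B26 read 4.58, 4.69 and 4.58 in Kas roots and 6.18, 5.68 and 5.38 in Tsu roots after 48 h without iron, a difference of -1.13 (adjusted p = 0.00866 in limma). CYP71B34 read 3.45, 3.95 and 3.66 in Kas and 4.71, 4.37 and 4.37 in Tsu, a difference of -0.80 (adjusted p = 0.0028 in limma). CYP71B38 read 2.35, 2.38 and 2.25 in Kas and 2.88, 2.89 and 3.06 in Tsu, a difference of -0.61 (adjusted p = 0.000437 in limma). For these 3 genes all Kas arrays lay below all Tsu arrays. CYP71B24 read 1.94, 2.50 and 1.85 in Kas and 3.15, 2.38 and 3.06 in Tsu, which overlapped, a difference of -0.76 (adjusted p = 0.012 in limma). Its call ended without Kas replicate 3 (0.0613) or Tsu replicates 1 (0.0691) or 3 (0.0513), and that of CYP71B26 without Tsu replicate 1 (0.0542), both in limma.

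On complete medium the 5 root calls were CYP71B35, CYP71B27, CYP71B22, CYP71B38 and CYP71B34, from the root values given above for CYP71B35, CYP71B27 and CYP71B34. CYP71B22 read 3.22, 3.28 and 3.66 in Kas roots against 3.49, 4.36 and 4.11 in Tsu roots, which overlapped, and CYP71B38 read 2.16, 2.23 and 2.14 in Kas roots against 2.73, 2.79 and 2.71 in Tsu roots, which did not. The differences were -0.82, -0.67, -0.60, -0.57 and -0.56 in that order, with adjusted p of 0.0189, 0.00694, 0.0495, 0.00402 and 0.0477 in limma. With only these 6 arrays in the fit 0 of the 5 passed in limma. CYP71B38 and CYP71B27 held without each array in turn. CYP71B35 ended without Kas replicates 1 or 3 or Tsu replicate 2 (adjusted p from 0.0566 to 0.103 in limma). CYP71B22 and CYP71B34 each ended without any 1 of 5 arrays, all but Tsu replicate 1 for CYP71B22 and all but Tsu replicate 2 for CYP71B34, with adjusted p from 0.0599 to 0.191 and from 0.0614 to 0.166 in limma.

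Among members with a known role, CYP84A4 of arabidopyrone synthesis and CYP79A2, which makes phenylacetaldoxime for benzylglucosinolate, passed in no comparison between groups, and neither did CYP71B25, CYP71B30P or CYP71B31. CYP71B31, which takes part in linalool metabolism in flowers, and CYP79A2 were among the members that read below the lower quartile throughout. CYP84A4 was brighter, with group means of 3.62 in Kas shoots after 48 h without iron, the lowest, to 4.39 in Tsu roots on complete medium, the highest. Its iron differences ran from -0.40 in Tsu roots at 48 h to 0.21 in Kas roots at 48 h. CYP51G2, a pseudogene related to sterol demethylases, read 3.63, 3.57 and 3.78 in Kas roots after 48 h without iron against 3.07, 3.29 and 3.50 on complete medium, all higher, and the difference of 0.37 did not pass (adjusted p = 0.0921 in limma). In the same comparison CYP71B6 read 7.17, 7.39 and 7.32 against 7.89, 7.49 and 7.72, all lower, at -0.40 (adjusted p = 0.0739 in limma). Of the 16 role lists drawn up for plant P450s, 4 had a gene among the members, namely CYP84A4, CYP79A2, CYP71B6 and CYP78A9. Hormone, sterol, carotenoid and cutin P450s are therefore not analysed here.

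The supply of heme was not measured, and only transcripts were looked at, from a list of 15 genes of tetrapyrrole and heme synthesis. Of these, 5 had a probe set with 1 gene symbol in the annotation: HEMA2, GSA1, HEMB1, HEME1 and HEME2. In 7 of the 8 iron comparisons 0 of 5 passed in limma, with 0 to 2 at an unadjusted p below 0.05. In Tsu shoots after 24 h without iron, the group with an index of 0.484, GSA1 rose by 0.55 and HEMB1 and HEME2 fell by 1.07 and 0.53. Over all probe sets 16.1% were called there. Kas minus Tsu in shoots on complete medium was 0.73 for GSA1, -2.29 for HEMB1 and -0.35 for HEME2, the same directions. For these genes too the iron effect and the shift in the index cannot be told apart. On complete medium HEMA2 was higher and the other 4 lower in roots, in both ecotypes. Between shoots 2 were higher and 1 lower in Kas on either medium, and between roots 4 were lower in Kas after 48 h without iron. On complete medium 0 passed between roots in limma, with 1 at an unadjusted p below 0.05. Of 8 electron donors of P450s and 27 P450s listed under other symbols, 0 had a probe set with 1 gene symbol outside the members. Whether the 8730 probe sets with no symbol or the 503 with several measure such genes was not tested.

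Of 6 coumarin genes 4 had a probe set with 1 gene symbol. In roots 2 of these 4 were called after 48 h without iron in Kas and 2 in Tsu, all higher. S8H, which hydroxylates scopoletin, was higher by 3.47 in Kas roots (adjusted p = 0.00221 in limma) and by 3.28 in Tsu roots (adjusted p = 0.00704 in limma) after 48 h without iron. The members then ran from -1.40 to 0.39 in Kas roots and from -0.46 to 1.21 in Tsu roots. S8H was lower in Kas than in Tsu roots on complete medium, by -2.48. The index moved from 0.606 to 1 in Kas roots and from 0.419 to 0 in Tsu roots, and its part in these rises was not tested.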

How the data were processed

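Expression was measured with 36 one-colour Affymetrix arrays, 3 in each of 12 groups set by the ecotype, tissue, medium and time in the sample titles. The values deposited by the authors are log2 expression per probe set, a scale read from their range of 1.31 to 13.4. Array medians lay between 4.91 and 5.14. For background correction, normalization and software, the sources used here name no method, so an effect of these steps on dim probe sets was not tested. Array number limits the precision.

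The 64 controls among 22810 probe sets were dropped. Tests covered the other 22746, dim ones included. The platform annotation gave 13513 probe sets 1 gene symbol, 503 several and 8730 none. Members were named from it, and all 23 carried the same name in RefSeq TAIR10.1, used for names and gene order only. Probe sequences were not used here, so how well each ecotype's transcripts match the probes was not tested.

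Groups were compared with limma 3.58.1 (lmFit, eBayes) in R 4.3.3, with a mean for each group, fitted to the 18 arrays of 1 tissue, or to all 36 for contrasts between tissues. Tests were two-sided, and p-values were adjusted by Benjamini-Hochberg over all probe sets. Any member could be named. Arrays were to be given for the 6 largest called changes in each direction, or 8 between tissues. The ecotype index is the mean position of an array between the 48 h groups, over probe sets called between them with a log2 difference of at least 2, members left out. Lists of tetrapyrrole and heme synthesis, coumarin, electron donor and role genes were used as descriptions. Members, lists and tests were chosen with earlier results of these data known. Alternatives were other sets of arrays in the fit, quantile normalization, a filter on dim probe sets, the index as a covariate, a replicate block and leaving out each array. The fit was also run on simulated data, with independent noise around the mean of Kas on complete medium. That simulation held no shifts of the ecotype index, so it cannot show their effect on the calls.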

Additional observations from a re-analysis of the deposited data

Results flagged for a closer look

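Each value here is a difference between the effects in 2 groups that passed the test of that difference, a limma contrast with an adjusted p below 0.05. For Kas minus Tsu of the 48 h iron effect, CYP71B27 had 0.75 in roots and CYP71B23 had -1.31 in shoots. For roots minus shoots of the 48 h iron effect, CYP71B27 had 0.81 and CYP71B37 -1.59 in Kas, and CYP71B23 had -1.81 and CYP71B5 1.19 in Tsu. For Kas minus Tsu of roots minus shoots on complete medium, CYP71B23 had -3.23, CYP71B36 -1.74, CYP71B27 -0.70 and CYP71B6 -0.58, in a contrast chosen after the values were seen. The CYP71B23 results and those of CYP71B36 and CYP71B6 held without each of 12 arrays, and the others did not. With only the arrays compared in the fit, those of CYP71B6, CYP71B37 and CYP71B5 ended. So did those of CYP71B27 for Kas minus Tsu of the 48 h iron effect and for Kas minus Tsu of roots minus shoots. On complete medium, which enters each contrast, the ecotype index was 0.606 in Kas roots, 0.419 in Tsu roots, 0.908 in Kas shoots and -0.00267 in Tsu shoots. No group here has 4 or more arrays, so single arrays that stand apart were not tested.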

How the results depend on the processing

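Counts of members called are given here under other settings, where they moved by over 1.5 times. With all 36 arrays in 1 fit they became 1 and 2 in Kas roots at 24 h and 48 h, all lower. In that fit they became 4 in Tsu roots at 24 h, 2 of them lower, and 1 in Tsu shoots at 48 h. They were 8 between roots on complete medium and 3 for the interaction in roots, 2 of these 3 lower. With only the arrays compared they became 0 in Tsu roots at 24 h and at 48 h, 1 in Tsu shoots at 48 h, 0 between roots on complete medium, 0 for the interaction in roots, 1 for tissue by iron in Tsu and 2 for tissue by ecotype. Quantile normalization gave 1 in Tsu roots at 24 h and 3 between roots on complete medium. The index as a covariate gave 0 in Tsu roots at 48 h and 0 in Tsu shoots at 24 h, where CYP71B36 reversed to -0.56. Without arrays between the ecotypes there was 1 in Kas roots at 24 h and 1 in Tsu shoots at 48 h. That setting could not be fitted for the iron comparisons of Tsu roots and of Tsu shoots at 24 h, or for the ecotypes and their interaction in roots with complete medium. The filter on dim probe sets kept 4 members in roots and 8 in shoots, and gave 1 and 0 in Tsu roots at 24 h and 48 h, 0 in Kas shoots at 24 h, 1 in Tsu shoots at 48 h, 0 and 1 between roots on complete medium and at 48 h, 5 and 7 between shoots, 3 and 4 between tissues in Kas and Tsu, 1 each for tissue by iron in Kas and Tsu and 2 for tissue by ecotype. The fall there follows from fewer members tested, and the cause of the other moves was not tested. Replicate numbers were not used to pair samples in the main fit. In 0 of 14 comparisons did all 3 same-number correlations pass 0.1 (range -0.391 to 0.144). With 3 arrays a group this check cannot show that samples were unpaired. With the replicate block the count in Tsu shoots at 48 h was 1, and it moved no other count of members by over 1.5 times. Leaving out each array gave, at 24 h and 48 h, 0 to 1 and 0 to 1 in Kas roots, 0 to 4 and 0 to 1 in Tsu roots, 0 to 1 and 0 to 0 in Kas shoots, and 3 to 4 and 1 to 3 in Tsu shoots. Between ecotypes it gave 2 to 6 and 4 to 7 in roots and 7 to 10 and 11 to 13 in shoots, on complete medium and at 48 h, with interactions of 0 to 3 in roots and 1 to 2 in shoots. Between tissues it gave 12 to 17 in Kas and 12 to 14 in Tsu, for tissue by iron 0 to 3 in Kas and 1 to 2 in Tsu, and for tissue by ecotype 3 to 5. With 3 arrays a group, single dim members are the least certain.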
